A study of Mus musculus with 6 samples.

Results

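Chromatin accessibility was examined at imprinted genes, the genes that mammals express mainly from the maternal or mainly from the paternal copy. A list of 41 imprinted mouse genes was taken, and every ATAC-seq interval that overlapped the body of a listed gene, or lay within 5 kb of one of its transcription start sites (TSSs), was kept. TSSs and gene bodies came from the GENCODE vM1 annotation of the mm9 genome. Of the 39768 intervals in the table, 86 met this rule (0.216%), on 8 chromosomes, and 33 of them had their midpoint within 1 kb of a TSS of the gene, called promoter intervals here. They belonged to 21 of the 41 genes, and 10 intervals belonged to a pair of genes at once.

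In ATAC-seq the Tn5 transposase cuts DNA where chromatin is open, and the fragment ends counted in an interval measure its accessibility. The question was whether accessibility differs in muscle from mice whose fibres lack the histone variant H2A.Z. Both groups were mice of 7 weeks, C57BL/6 by the labels (the methods name C57BL/6N as the strain of backcrossing), homozygous (flox/flox) for floxed alleles of H2A.Z-1 and of H2A.Z-2, the genes that encode H2A.Z, and each library was made from 50000 nuclei. The 3 CTL libraries came from mice without Cre and the 3 H2A.Z dKO libraries from mice carrying the HSA-Cre transgene. The HSA promoter drives Cre in post-mitotic muscle fibres, so nuclei of other cells in the muscle keep H2A.Z in both groups. The sample labels name tibialis anterior and the methods name muscles of the hind limb. The labels do not say that replicates are separate animals, so the spread between replicates may be technical, and in whole muscle a smaller share of nuclei of a cell type cannot be told apart from lower accessibility in each nucleus.

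Library totals inside the intervals were 3520008 to 6117245 fragment ends, of which 7517 to 13183 lay in the intervals of imprinted genes. H2A.Z dKO replicate 1 stood apart, with 77.0% of its fragment ends in promoter intervals of all genes, against 73.2% to 74.9% in the other 5 libraries, so many of the values below are also given without it. Confidence intervals and standard errors are those of all 6 libraries. The 2 intervals in the floxed segment of H2afz held 79, 69 and 33 fragment ends in CTL. The libraries labelled H2A.Z dKO had 57, 52 and 64 there, so the groups were not separated (exact permutation test, two-sided p = 0.6, where 0.1 is the smallest value 3 libraries against 3 can give). The floxed segment of H2afv (exons 4 and 5) held 0 intervals, so these counts do not check it, and directions below rest on the labels. The study reports depletion of H2A.Z by RT-qPCR, western blotting and immunofluorescence of fibres, and inactivation of both genes by RNA-seq. Those assays were not analysed here. Promoter intervals were found for 10 of 14 muscle fibre markers (not Mb, Myh1, Myh2 or Atp2a1), with a summed level of 412 to 557 CPM (counts scaled to one common library total) in CTL and 435 to 594 in H2A.Z dKO. For 5 of 6 endothelial markers (not Pecam1) the sum was 71.1 to 82.1 CPM in CTL and 57.4 to 64.2 in H2A.Z dKO, so the groups did not overlap, and the part of this in the values below was not tested. Fibroblast markers gave 77.2 to 94.8 and 93.6 to 100.5 CPM (4 of 6 genes, not Dcn or Lum), satellite cell markers 27.9 to 45.8 and 42.0 to 49.5 CPM (1 of 3 genes, not Pax7 or Myf5), and 0 of the 5 annotated macrophage markers had a promoter interval.

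Imprinted genes lie in clusters, and each cluster is ruled by an imprinting control region, where DNA is methylated on the copy from one parent only. The methylated copy is bound by the zinc finger protein ZFP57 with TRIM28 (KAP1), which keep the mark through early development, whereas the unmethylated copy can be bound by CTCF or serve as the promoter of a long noncoding RNA that silences neighbouring genes. Many imprinted genes control growth, metabolism or cell division, and the expression of several is lowered after birth. Counts of fragment ends do not tell the parental copies apart, so the values below are sums over both.

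Sequences were chosen to show the promoter interval with the lowest p-value (Grb10), promoters of noncoding RNAs (Airn and Kcnq1ot1), the shared promoter of Peg10 and Sgce, and intron intervals with repeated motifs (Peg3 and Trappc9). All were read from the plus strand of mm9, and for Grb10, Airn and Kcnq1ot1 only the part upstream of the TSS is printed. For Grb10 and Kcnq1ot1 this is the TSS of RefSeq. That of Grb10 lies at chr11:11937423, where GENCODE vM1 has one at chr11:11937404. In the first 4 sequences capitals mark CpG dinucleotides, in those of Peg3 copies of CGCCATNTT, part of the YY1 motif, and in that of Trappc9 copies of TGCCGC, the core that ZFP57 binds when it is methylated, each read on both strands.
Grb10 promoter (minus-strand gene), chr11:11937424-11937580: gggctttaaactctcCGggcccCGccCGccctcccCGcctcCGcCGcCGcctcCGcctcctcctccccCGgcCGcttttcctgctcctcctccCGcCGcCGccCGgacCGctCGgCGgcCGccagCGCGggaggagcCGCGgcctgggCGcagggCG
Peg10 and Sgce (shared promoter), chr6:4697329-4697350: gatctctctatataaggcaagc
Airn promoter (plus-strand gene), chr17:12934062-12934176: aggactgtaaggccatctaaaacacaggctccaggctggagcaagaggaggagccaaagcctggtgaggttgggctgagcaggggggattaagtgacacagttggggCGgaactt
Kcnq1ot1 promoter (minus-strand gene), chr7:150482453-150482700: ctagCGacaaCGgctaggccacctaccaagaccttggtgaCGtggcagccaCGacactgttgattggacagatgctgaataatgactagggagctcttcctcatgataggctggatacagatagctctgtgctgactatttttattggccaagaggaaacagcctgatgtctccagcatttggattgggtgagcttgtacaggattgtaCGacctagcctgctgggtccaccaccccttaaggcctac
Peg3 intron (minus-strand gene), chr7:6682186-6682356: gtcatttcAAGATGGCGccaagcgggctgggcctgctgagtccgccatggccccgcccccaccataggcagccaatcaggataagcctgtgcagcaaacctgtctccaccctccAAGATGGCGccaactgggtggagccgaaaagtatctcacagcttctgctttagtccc
Peg3 intron, chr7:6680533-6680775: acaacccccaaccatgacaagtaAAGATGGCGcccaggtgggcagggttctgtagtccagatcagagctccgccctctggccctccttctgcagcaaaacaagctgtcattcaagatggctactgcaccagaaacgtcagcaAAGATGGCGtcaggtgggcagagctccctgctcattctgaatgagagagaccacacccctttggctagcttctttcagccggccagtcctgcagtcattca
Trappc9 intron (minus-strand gene), chr15:72640337-72640615: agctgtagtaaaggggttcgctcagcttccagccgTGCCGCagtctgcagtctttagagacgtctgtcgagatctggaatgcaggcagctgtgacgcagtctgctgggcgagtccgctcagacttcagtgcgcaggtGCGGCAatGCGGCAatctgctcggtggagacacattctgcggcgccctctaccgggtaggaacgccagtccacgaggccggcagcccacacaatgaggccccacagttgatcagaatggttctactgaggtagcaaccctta
The printed parts differed in CpG density. The Grb10 stretch held 24 CpGs in 157 bases, whereas Kcnq1ot1 held 5 in 248 and Airn 1 in 115. The whole intervals, with the bases downstream of the TSS, held 27 CpGs in 199 bp at Grb10, 12 in 340 bp at Kcnq1ot1 and 5 in 236 bp at Airn.

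Of the 39 listed genes that GENCODE vM1 annotates, 21 had an interval and 18 had none. Whole clusters were without one. At the H19 and Igf2 cluster, which encodes a noncoding RNA and the growth factor IGF2, the nearest interval lay 16788 bp from H19 and 20619 bp from Igf2. In the Dlk1 to Dio3 cluster, Dlk1, Meg3, Rtl1, Rian, Mirg and Dio3 had none, and the nearest interval to any of them was 16306 bp from Dlk1. In the Prader-Willi cluster, Snrpn, Ndn, Magel2 and Mkrn3 had none, with the nearest interval 642540 bp from Snrpn and 862559 bp from Ndn, while Ube3a at the other end of the cluster had 3. Phlda2, Slc22a18, Nespas, Nap1l5 and Nnat were also without an interval, and the interval nearest to Nnat lay 3773 bp from it, more than 5 kb from its TSS. Usp29, an ubiquitin peptidase, had none by GENCODE vM1, which starts it at chr7:6913871, whereas RefSeq starts it at chr7:6683294, beside the Peg3 TSS at chr7:6683130, so that the intervals of Peg3 lie within 5 kb of this start. Kcnq1ot1 and Peg13 are not in GENCODE vM1. The RefSeq promoter of Kcnq1ot1 (from GRCm38.p6) was found unchanged in mm9, with a TSS at chr7:150482452, and this TSS lies inside an interval in an intron of Kcnq1. The table analysed here holds fewer intervals than the methods count in their union set, so the absence of an interval, and the distance to the nearest one, hold for this table only.

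Among the genes with intervals, Ddc had 13, Igf2r 10, Airn 9, Peg3 and Commd1 8 each, Trappc9 7, Grb10 and Gnas 5 each, and Sgce, Kcnq1 and Inpp5f 4 each. The other 10 genes had 1 to 3. Ddc, Kcnq1 and Impact had none within 1 kb of their own TSS, so that 18 genes had a promoter interval. Widths ran from 21 to 790 bp with a median of 126.5 bp (137 bp over all intervals), and 8 of the 86 overlapped the interval before them, so neighbouring intervals can count the same fragment ends.

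**Figure D1:**
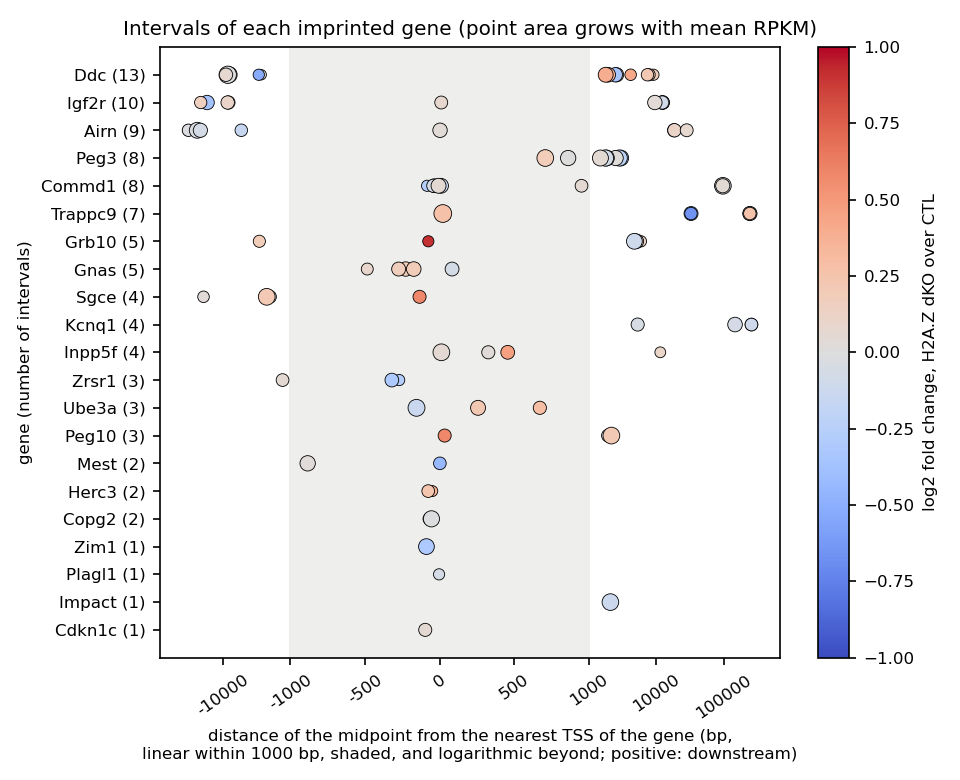
Every interval of the 21 imprinted genes by its distance from the nearest TSS of the gene, coloured by the log2 fold change of H2A.Z dKO over CTL, with point area growing with the mean RPKM over 6 libraries. Grb10 shows its highest fold change at the TSS (0.91), whereas most intervals of Ddc, Igf2r and Airn lie more than 1 kb from a TSS.

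No interval of an imprinted gene passed the test between groups. With p-values from the quasi-likelihood test of edgeR, adjusted by Benjamini-Hochberg over the whole table, 0 of 86 were under 0.05, beside 0% of all 39768 intervals, and the lowest adjusted p of an imprinted gene was 0.972. At an unadjusted p under 0.05 there was 1 higher interval, at the Grb10 promoter, where 2.64% of all intervals were higher, and 2 lower ones, at the Zim1 promoter and in an intron of Trappc9, where 2.31% of all were lower. The median log2 fold change was 0.016 over the 86 intervals and 0.012 over all intervals. Over the 33 promoter intervals it was 0.061, with 23 above 0 (69.7%), beside 0.011 and 52.7% above 0 over all 20826 promoter intervals. Without H2A.Z dKO replicate 1, 14 of the 33 were above 0 (42.4%), beside 40.4% of all promoter intervals. All 3 H2A.Z dKO libraries lay above all CTL libraries at 2 of the 86 intervals (5.22% of all intervals did) and below them at 5 (5.63% of all did). With H2A.Z dKO replicate 1 left out, the other two lay above at 8 (12.4% of all) and below at 13 (12.5% of all). Summed over the 86 intervals, the level was 2132 ± 24.8 CPM (SD, n = 3) in CTL and 2139 ± 91.0 CPM (SD, n = 3) in H2A.Z dKO.

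The standard errors bound what could be seen. They ran from 0.106 to 0.359 on the log2 scale with a median of 0.216, beside 0.215 over all intervals, and in 21 of the 86 intervals some library held under 20 fragment ends. The 95% confidence interval stayed within a 2-fold change in either direction at 78 of the 86 intervals (90.7%, beside 91.4% of all) and within a 1.5-fold change at 42 (48.8%, beside 49.6% of all). The set of intervals also bears on direction, since a column of the table lists 40 of the 86 for H2A.Z dKO only, 18 for CTL only and 28 for both. Of all 39768 intervals, 17264, 7128 and 15376 are listed in these ways, so the excess for H2A.Z dKO only is shared by the whole table. The median log2 fold change of the 40 was 0.059, of the 18 it was 0.044 and of the 28 it was -0.050, beside 0.11, -0.13 and -0.023 over all intervals of these 3 kinds. With H2A.Z dKO replicate 1 left out the medians were 0.091, -0.16 and -0.069, beside 0.13, -0.16 and -0.043.

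**Figure D2:**
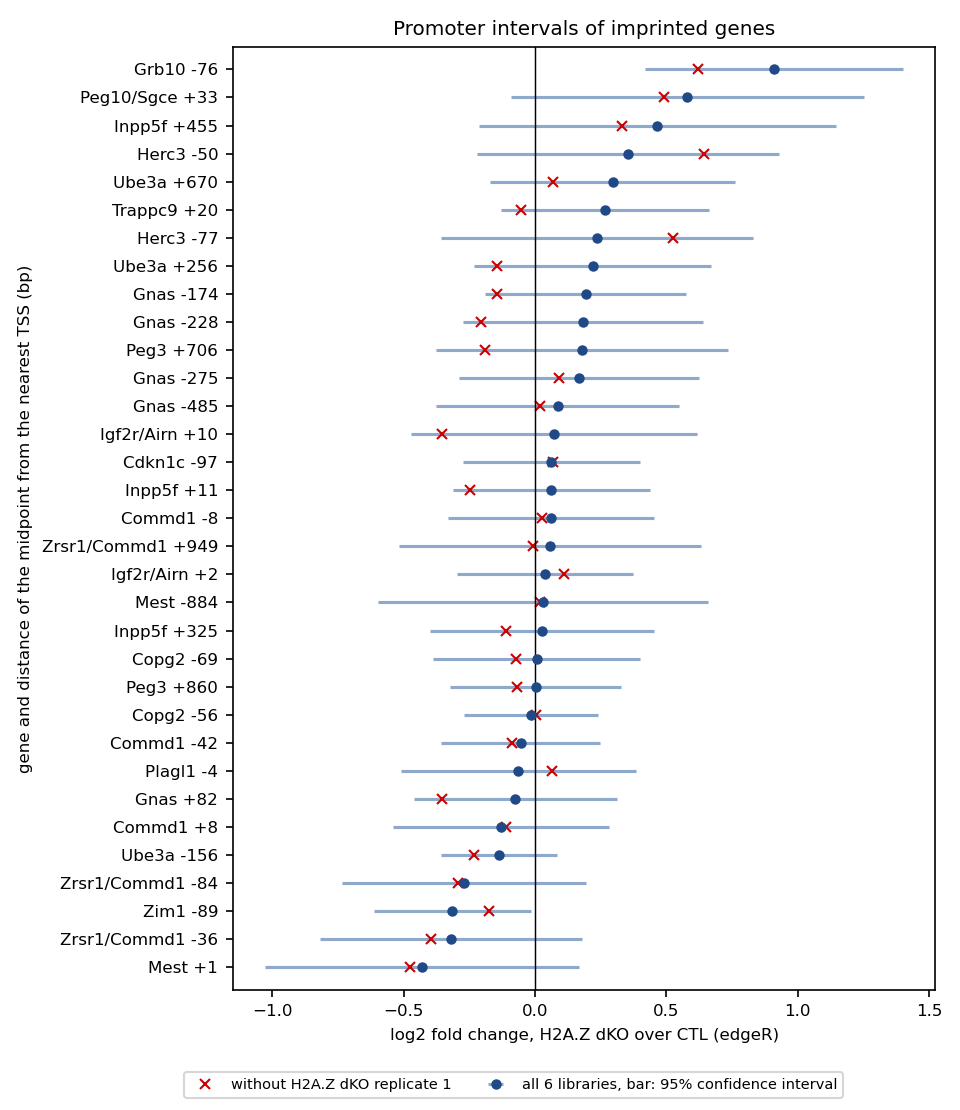
Log2 fold change of H2A.Z dKO over CTL at the 33 promoter intervals of imprinted genes, with its 95% confidence interval (bars) and the value without H2A.Z dKO replicate 1 (crosses). The bar stays clear of 0 at Grb10 (0.42 to 1.40) and at Zim1 (-0.61 to -0.02), and 13 of the 33 crosses lie on the other side of 0 from their point.

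Genes expressed mainly from the paternal copy come first. Here and below, parental expression is textbook knowledge of each gene and was not measured in this muscle. An unadjusted p under 0.05 by edgeR was reached upward by 2.1% and downward by 1.73% of the promoter intervals of all genes. Paternally expressed genes had 12 promoter intervals, 8 of them with a log2 fold change above 0 (52.7% of all promoter intervals were) and 0 past an unadjusted p of 0.05, with a median of 0.029. Without H2A.Z dKO replicate 1 the median was -0.090 and 5 of the 12 were above 0. Inpp5f is imprinted through an internal isoform, and without its 3 intervals the median of the other 9 was 0.0023, or -0.068 (4 of 9 above 0) without that library. Among the 12, 2 intervals, at Zrsr1, are also promoter intervals of Commd1. Peg3, a zinc finger protein, had 8 intervals, all inside its body from 706 to 2956 bp downstream of the TSS, in the intron. The one nearest to the TSS (chr7:6682408-6682439) had an RPKM (fragment ends per kb of interval, scaled to the same library total) of 179, 223 and 192 in CTL and of 308, 177 and 173 in H2A.Z dKO. Only replicate 1 of H2A.Z dKO lay above the CTL range, and the log2 fold change of 0.18 (SE 0.268) became -0.19 without it. The widest Peg3 interval (chr7:6681087-6681564) had 201, 178 and 191 RPKM in CTL and 173, 196 and 164 in H2A.Z dKO, ranges that overlapped, with a log2 fold change of -0.10 (SE 0.110).

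Peg10, a retrotransposon-derived gene, and Sgce, which encodes epsilon-sarcoglycan of the muscle dystrophin complex, are transcribed in opposite directions from one promoter. The 22-bp interval there, printed above, had 11, 7 and 9 fragment ends in CTL and 18, 12 and 14 in H2A.Z dKO. At 81.7, 68.7 and 116 RPKM against 139, 120 and 127 RPKM, the groups did not overlap, but these are few ends, and the log2 fold change of 0.58 had an SE of 0.323 and a confidence interval of -0.09 to 1.25 (edgeR adjusted p = 0.972). A wider interval in the Peg10 intron (chr6:4699068-4699349) had 101, 92.3 and 118 RPKM in CTL and 97.6, 101 and 95.7 in H2A.Z dKO, with overlapping groups and a log2 fold change of -0.07 (SE 0.161), or -0.09 without H2A.Z dKO replicate 1. A 23-bp interval beside it (chr6:4699436-4699459) had a log2 fold change of 0.21 (SE 0.289), or -0.18 without that library, so that both intron intervals were then below 0.

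Mest, which encodes a hydrolase-like protein of mesoderm, had 1 interval on a TSS (chr6:30688036-30688076) and 1 centred at -884 bp from it. On the TSS, the RPKM was 85.8, 119 and 142 in CTL and 85.1, 98.9 and 64.7 in H2A.Z dKO, overlapping, with a log2 fold change of -0.43 (SE 0.289). Upstream it was 164 ± 79.7 RPKM (SD, n = 3) in CTL and 174 ± 15.8 RPKM (SD, n = 3) in H2A.Z dKO, with a log2 fold change of 0.03 (SE 0.302). Plagl1 (Zac1), a transcription factor that regulates other imprinted genes, had a single interval at its TSS (chr10:12810506-12810673), among the least accessible promoter intervals, at the 3.29th percentile of all of them. Its RPKM was 76.4, 71.1 and 59.5 in CTL and 53.0, 72.4 and 76.3 in H2A.Z dKO, and the log2 fold change was -0.06 (SE 0.216).

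The promoters of both silencing RNAs were accessible in each library. Airn, the antisense RNA that silences Igf2r on the paternal copy, starts inside an Igf2r intron, and the interval over its TSS (chr17:12934061-12934297) had 135, 162 and 126 RPKM in CTL and 126, 173 and 138 in H2A.Z dKO. These ranges overlapped, with a log2 fold change of 0.04 (SE 0.161, confidence interval -0.30 to 0.37). At the Kcnq1ot1 TSS, the start of the antisense RNA that silences the Kcnq1 and Cdkn1c cluster, the interval (chr7:150482360-150482700) had 151, 160 and 145 RPKM in CTL and 119, 144 and 175 in H2A.Z dKO. Here H2A.Z dKO replicate 1 was the lowest and replicate 3 the highest of the 6 libraries, and the log2 fold change was -0.07 (SE 0.139, confidence interval -0.36 to 0.22).

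Zrsr1 is a retrogene of a splicing factor gene that lies within Commd1. Of its 3 intervals the one nearest to its TSS (chr11:22872862-22873025) had 79.2, 68.9 and 74.9 RPKM in CTL and 61.6, 45.8 and 77.0 in H2A.Z dKO, overlapping, with a log2 fold change of -0.27 (SE 0.224), which was -0.10 without H2A.Z dKO replicate 2 and -0.45 without replicate 3. RefSeq starts Zrsr1 at chr11:22872005, upstream of this interval, so its distance from the promoter depends on the annotation. Nearest to the RefSeq start was the interval at chr11:22871891-22871929, with a log2 fold change of 0.06 (SE 0.277), or -0.0087 without H2A.Z dKO replicate 1. The narrower interval inside the first (chr11:22872866-22872923) had -0.32 (SE 0.240), or -0.40 without that library. Inpp5f, an inositol phosphatase, had the widest interval of all imprinted genes over its TSS (chr7:135754458-135755248), with 976, 725 and 611 fragment ends in CTL and 1342, 626 and 708 in H2A.Z dKO. The RPKM of 202, 198 and 220 in CTL lay between those of H2A.Z dKO, 289 in replicate 1 against 174 and 178 in replicates 2 and 3, and the log2 fold change of 0.06 (SE 0.174) became -0.25 without replicate 1. Impact, a regulator of translation, had 1 interval in an intron 2070 bp downstream of its TSS, at 216 ± 7.54 RPKM (SD, n = 3) in CTL and 198 ± 15.4 RPKM (SD, n = 3) in H2A.Z dKO, with a log2 fold change of -0.13 (SE 0.109).

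**Figure D3:**
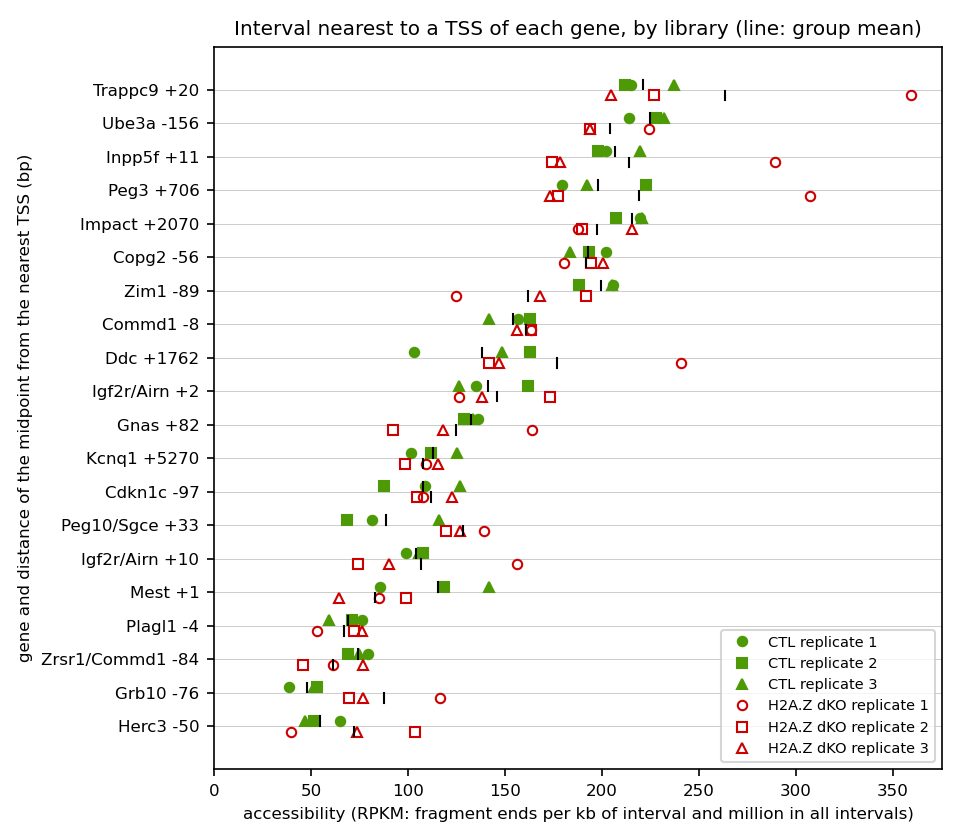
RPKM in each of the 6 libraries at the interval nearest to a TSS of each imprinted gene, with the mean of each group as a line. H2A.Z dKO replicate 1 is the highest of the 6 libraries at Trappc9 (359), Inpp5f (289) and Grb10 (116), and the lowest at Zim1 (125) and Herc3 (39.7).

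Genes expressed mainly from the maternal copy had 17 promoter intervals, 10 of them with a log2 fold change above 0 (52.7% of all promoter intervals were) and 1 (Zim1, lower) past an unadjusted p of 0.05, with a median of 0.056. Without H2A.Z dKO replicate 1 the median was -0.071 and 6 of the 17 were above 0. Ube3a is imprinted in neurons, and without its 3 intervals the median of the other 14 was 0.031, or -0.063 (5 of 14 above 0) without that library. Whether the genes of these 14 are expressed from the maternal copy in muscle was not examined. Igf2r, the receptor that removes IGF2, had 10 intervals, of which 1 lay on its TSS (chr17:12962477-12962563). It had 98.8, 108 and 106 RPKM in CTL and 156, 74.1 and 90.3 in H2A.Z dKO, so that the CTL values lay inside the wider H2A.Z dKO range, and the log2 fold change of 0.07 (SE 0.263) became -0.35 without H2A.Z dKO replicate 1. Inside the gene, where Igf2r and Airn overlap, the interval at chr17:12952496-12952701 had 117, 123 and 116 RPKM in CTL and 104, 98.6 and 109 in H2A.Z dKO. There the groups did not overlap, but the log2 fold change of -0.20 had an SE of 0.169 (edgeR unadjusted p = 0.257).

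In the Kcnq1 cluster, Cdkn1c, which encodes the cell cycle inhibitor p57, had a promoter interval (chr7:150646903-150647201) with 109, 87.7 and 127 RPKM in CTL and 108, 105 and 123 in H2A.Z dKO. The H2A.Z dKO values lay within the CTL range, and the log2 fold change was 0.06 (SE 0.163, confidence interval -0.28 to 0.40). Kcnq1, a potassium channel subunit, had 4 intervals, all in introns, with log2 fold changes from -0.10 to -0.05. The one nearest to its TSS, 5270 bp downstream, had 113 ± 12.0 RPKM (SD, n = 3) in CTL and 108 ± 8.52 RPKM (SD, n = 3) in H2A.Z dKO.

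Zim1 is a zinc finger gene beside Peg3. Its promoter interval (chr7:6649115-6649385) had 340, 235 and 195 fragment ends in CTL and 198, 236 and 228 in H2A.Z dKO, or 206, 188 and 205 RPKM against 125, 192 and 168 RPKM. Replicate 2 of H2A.Z dKO lay inside the CTL range and the other two below it. The log2 fold change was -0.31 (SE 0.144, unadjusted p = 0.0403, adjusted p = 0.972 by edgeR), and -0.17 without H2A.Z dKO replicate 1, the lowest library. Without that library, or without CTL replicate 1 or CTL replicate 3, and with DESeq2 or only intervals with 20 or more counts in each library, Zim1 was not past an unadjusted p of 0.05.

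Copg2, a coat protein subunit that overlaps the end of Mest, had a promoter interval (chr6:30846711-30846988) at 202, 193 and 184 RPKM in CTL and 181, 194 and 201 in H2A.Z dKO. These 6 values covered nearly one range, and the log2 fold change was -0.01 (SE 0.123, confidence interval -0.27 to 0.24). Ube3a, an ubiquitin ligase, had its main interval over the TSS (chr7:66483692-66484241) at 214, 228 and 232 RPKM in CTL and 224, 194 and 194 in H2A.Z dKO, a log2 fold change of -0.14 (SE 0.106), or -0.23 without H2A.Z dKO replicate 1. The 2 intervals downstream of that TSS had values of the other sign, 0.22 (SE 0.217) and 0.30 (SE 0.225), but -0.15 and 0.07 without that library.

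Commd1, involved in copper handling and NF-kappaB signalling, had 8 intervals, of which 1 of 3 on its main TSS (chr11:22882341-22882439) had 157, 163 and 142 RPKM in CTL and 163, 164 and 156 in H2A.Z dKO. The ranges overlapped, with a log2 fold change of 0.06 (SE 0.189). The pair of intervals far inside its body lie within 1 kb of the TSSs of B3gnt2 and the pseudogene Gm12057, and are counted with Commd1 only because they overlap its body. Of these, the one at B3gnt2 (chr11:22759631-22760183) had 134 ± 12.6 RPKM (SD, n = 3) in CTL and 139 ± 13.2 RPKM (SD, n = 3) in H2A.Z dKO.

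Trappc9, a subunit of a vesicle trafficking complex, had an interval on its TSS (chr15:72891375-72891852) at 215, 212 and 237 RPKM in CTL and 359, 227 and 205 in H2A.Z dKO. Only replicate 1 lay above the CTL range, and the log2 fold change of 0.27 (SE 0.183) became -0.05 without it. By its mean over 6 libraries, 243 RPKM, it was the highest of the 86 intervals, but without replicate 1 its mean of 219 RPKM was below the 237 RPKM of the most accessible Ddc interval. A 38-bp intron interval (chr15:72853545-72853583) lay 32678 bp downstream of another Trappc9 TSS, at chr15:72886242. It had 25, 19 and 18 fragment ends in CTL and 9, 18 and 15 in H2A.Z dKO. With RPKM of 108, 108 and 135 against 40.3, 104 and 78.6, the groups did not overlap, and the log2 fold change was -0.67 (SE 0.311, unadjusted p = 0.0427, adjusted p = 0.972 by edgeR), or -0.36 without H2A.Z dKO replicate 1. The intron interval printed above had 92.2 ± 5.51 RPKM (SD, n = 3) in CTL and 91.1 ± 10.1 RPKM (SD, n = 3) in H2A.Z dKO, a log2 fold change of -0.02 (SE 0.167).

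Herc3, a HECT-domain protein whose intron holds Nap1l5, had a pair of overlapping intervals at an internal TSS. The wider (chr6:58812700-58812846) lay at the 1.86th percentile of all promoter intervals, with 64.9, 51.8 and 46.7 RPKM in CTL and 39.7, 104 and 73.7 in H2A.Z dKO. H2A.Z dKO replicate 1 was the lowest library and the others of its group the highest, so the log2 fold change of 0.35 (SE 0.277) became 0.64 without replicate 1 and 0.02 without replicate 2.

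Grb10, Gnas and Ddc, whose imprinting depends on isoform or tissue, were listed apart from both groups, a division that is not strict, since that of Ube3a and Inpp5f does as well. Grb10 encodes an adaptor that inhibits signalling from the insulin and IGF1 receptors, and its promoter interval (chr11:11937381-11937580), part of which is printed above, had the lowest p-value of the 86. It held 47, 49 and 36 fragment ends in CTL and 136, 63 and 77 in H2A.Z dKO. At 38.6, 53.2 and 51.4 RPKM in CTL and 116, 69.6 and 77.1 RPKM in H2A.Z dKO, every H2A.Z dKO library lay above every CTL library. The log2 fold change was 0.91 (SE 0.237, confidence interval 0.42 to 1.40, unadjusted p = 0.000906), and the adjusted p over all intervals was 0.972 by edgeR. Without H2A.Z dKO replicate 1, the highest library, it was 0.62 (unadjusted p = 0.00778, adjusted p = 0.506). An exact permutation test of the 6 CPM values gave p = 0.1, the smallest it can give.

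In level the Grb10 promoter remained low, at the 3.18th percentile of all promoter intervals by its mean over 6 libraries, and the table lists it for H2A.Z dKO only. Of all intervals listed in that way, 5.15% were higher at an unadjusted p under 0.05. The other 4 intervals of Grb10 had log2 fold changes from -0.11 to 0.19, or from -0.02 to 0.35 without H2A.Z dKO replicate 1. The strongest of them, in an intron 4707 bp downstream of a TSS (chr11:11865729-11866147), had 206, 176 and 182 RPKM in CTL and 149, 194 and 185 in H2A.Z dKO, overlapping, with a log2 fold change of -0.11 (SE 0.119), or -0.02 without H2A.Z dKO replicate 1.

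Gnas encodes the stimulatory G protein subunit Gs-alpha, and makes other transcripts from imprinted upstream promoters, where no interval was listed. On the Gs-alpha TSS, the interval at chr2:174155158-174155508 had 135, 144 and 139 RPKM in CTL and 217, 123 and 133 in H2A.Z dKO, and the one at chr2:174155558-174155803 had 136, 129 and 133 in CTL and 164, 92.4 and 118 in H2A.Z dKO. In both, H2A.Z dKO replicate 1 was above all CTL libraries and the others of its group below them. The log2 fold changes were 0.19 (SE 0.181) and -0.08 (SE 0.186), and -0.14 and -0.36 without replicate 1. Near a TSS inside the gene, the interval at chr2:174169833-174169919 had 123 ± 28.2 RPKM (SD, n = 3) in CTL and 141 ± 11.5 RPKM (SD, n = 3) in H2A.Z dKO, a log2 fold change of 0.17 (SE 0.220), or 0.09 without replicate 1.

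Ddc, DOPA decarboxylase, neighbours Grb10 and is imprinted in the heart. Its 13 intervals all lay outside its promoters, with log2 fold changes from -0.53 to 0.43, and 9 above 0. The most accessible (chr11:11744632-11744991) had 228 ± 18.2 RPKM (SD, n = 3) in CTL and 228 ± 38.8 RPKM (SD, n = 3) in H2A.Z dKO. The interval nearest to a TSS, 1762 bp downstream (chr11:11778838-11778903), had 103, 163 and 149 RPKM in CTL and 241, 142 and 147 in H2A.Z dKO, and a log2 fold change of 0.40 (SE 0.257), or 0.07 without replicate 1. A 64-bp interval centred at -2948 bp from a TSS (chr11:11793320-11793384) had 71.5, 81.0 and 93.2 RPKM in CTL and 53.2, 58.4 and 56.0 in H2A.Z dKO, groups that did not overlap, from 17 to 28 fragment ends a library (log2 fold change -0.53, SE 0.260, edgeR adjusted p = 0.972).

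H2A.Z dKO replicate 1 differed from the other libraries in a way that followed CpG density. By CPM corrected with the TMM factors of edgeR, it was the highest of the 6 libraries at 25 of the 86 intervals (29.1%, beside 24.5% of all intervals). It was the lowest at 19 (22.1%, beside 24.3% of all), and among the 33 promoter intervals the highest at 16, beside 37.1% of all promoter intervals. CpG density was expressed as the observed number of CpGs over the number expected from base composition, in 300 bp around the midpoint. At 0.8 or more, replicate 1 was the highest library at 7 of 14 intervals and the lowest at 0, beside 42.1% and 16.5% of all such intervals. Below 0.4 it was the highest at 5 of 37 and the lowest at 16, beside 9.82% and 31.2% of all. Its largest ratio to the mean of the other 5 libraries among the imprinted genes was at the Grb10 promoter, 1.06 on the log2 scale.

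Leaving it out turned the sign of the log2 fold change at 23 of the 86 intervals and 13 of the 33 promoter intervals. The median became -0.042 over the 86 (0.0015 over all intervals) and -0.068 over the 33 promoter intervals (-0.039 over all promoter intervals). In that comparison, again 0 of 86 passed an adjusted p of 0.05 (0% of all), and at an unadjusted p under 0.05 there were 2 higher intervals, at Grb10 and Herc3, where 4.24% of all were higher (1.84% of all promoter intervals). Another 3 were lower, where 3.71% of all were (4.66% of all promoter intervals): the TSS intervals of Inpp5f (-0.25, adjusted p = 0.435 by edgeR), Ube3a (-0.23) and Gnas (-0.36).

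**Figure D4:**
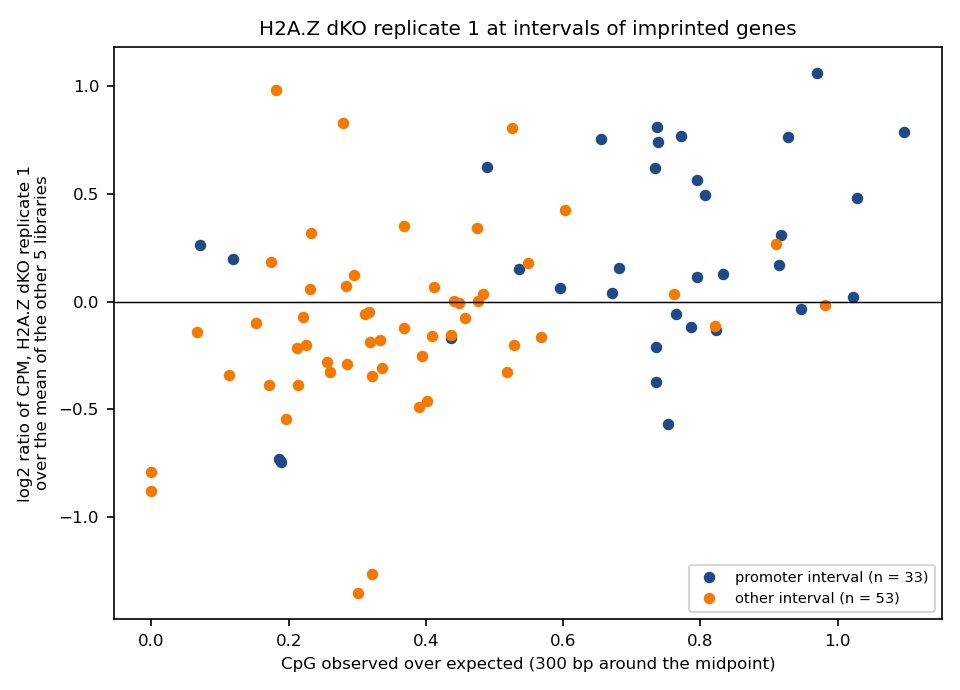
Log2 ratio of the CPM (with TMM factors) of H2A.Z dKO replicate 1 to the mean of the other 5 libraries at each of the 86 intervals of imprinted genes, against CpG observed over expected in 300 bp around the midpoint. Promoter intervals (blue) gather at high CpG density, where replicate 1 was the highest library at 7 of 14 intervals and the lowest at 0, and the highest point, at 1.06, is Grb10.

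By level, the promoter intervals of imprinted genes were spread over nearly the whole range of promoters in this muscle, from the 1.86th to the 92.9th percentile with a median at the 46.2nd, and 19 of 33 lay below the median of all promoter intervals. In CTL their median was 123 RPKM, beside 132 RPKM over all promoter intervals. The methods extended fragment ends before counting, so RPKM may not compare narrow and wide intervals evenly, which was not tested. The Peg3 interval nearest to its TSS is only 31 bp wide. In order of mean level over 6 libraries, Trappc9, Ube3a, Inpp5f and Peg3 were the highest of the intervals nearest to a TSS, and Herc3, Grb10, Zrsr1 and Plagl1 the lowest. The same 4 were the lowest without H2A.Z dKO replicate 1, while Trappc9, Ube3a, Impact and Copg2 were the highest. The CTL values of Trappc9, Ube3a and Inpp5f (212 to 237, 214 to 232 and 198 to 220 RPKM) overlapped each other, as did those of Plagl1 and Zrsr1 and those of Herc3 and Grb10, while the CTL values of Grb10 (38.6 to 53.2 RPKM) lay below those of Plagl1 (59.5 to 76.4 RPKM). The 300-bp windows around promoter intervals had a median GC content of 66.3% and a median CpG ratio of 0.75, beside 64.0% and 0.79 over all promoter intervals.

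Motifs were counted in the same windows on both strands. TGCCGC occurred in 13 of 33 windows (39.4%), beside 23.6% of the windows of all promoter intervals, and GGNGGCAG, part of the CTCF motif, in 8 (24.2%, beside 17.7%). Where N is C, a GGNGGCAG match holds a TGCCGC match on the other strand, so both counts can share a place. CGCCATNTT, chosen after the Peg3 sequences were seen, occurred in 3 of 33 (9.09%, beside 4.86%). In Peg3 it lay in 7 of 8 windows, beside 2.84% of the windows of all intervals, and those windows overlap each other. Within the Peg3 intervals themselves there were 7 copies, the widest interval with 3 of them. In the 12 promoter windows of paternally expressed genes TGCCGC was found in 6 and GGNGGCAG in 0, and in the 17 of maternally expressed genes they were found in 5 and 6. These counts are letters in reference sequence, from few and partly overlapping windows.

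Genes that act on imprints, DNA methylation or chromatin were examined at their own promoters, from a list of 30. Not all of them maintain imprints. Of these, 22 had a promoter interval, 48 in all, and Zfp57, Zfp445, Dnmt3l, Dppa3, Ehmt2, Cbx3, Atrx and Mbd3 had none. At an adjusted p under 0.05 (edgeR) 0 of 48 were called. At an unadjusted p under 0.05 there was 1 higher (2.1% of all promoter intervals were) and 0 lower (1.73% were). The higher one was 1 of 3 at Tet2, an enzyme that oxidizes methylcytosine (log2 fold change 0.74, SE 0.337, adjusted p = 0.972), and the others at Tet2 had -0.10 and 0.04. Without H2A.Z dKO replicate 1 the first was 0.65 and was not past an unadjusted p of 0.05, while 1 interval, at the chromatin regulator Arid4a, was lower (-0.70, beside -0.37 with all 6 libraries). In that fit, 4.66% of all promoter intervals were lower and 1.84% higher at an unadjusted p under 0.05. The median log2 fold change of the 48 was 0.075, with 35 above 0 (72.9%), beside 0.011 and 52.7% over all promoter intervals. Without H2A.Z dKO replicate 1 the median was -0.047, with 18 above 0 (37.5%), beside -0.039 and 40.4% over all promoter intervals. Trim28, the partner of ZFP57, had 191 ± 4.68 RPKM (SD, n = 3) in CTL and 180 ± 28.9 RPKM (SD, n = 3) in H2A.Z dKO at its most accessible promoter interval, with a log2 fold change of -0.08 (SE 0.146), or -0.23 without H2A.Z dKO replicate 1, and its other 4 had 0.04 to 0.12, or -0.20 to -0.12 without it. Smchd1, a chromosomal protein needed at several imprinted clusters, had 183 ± 11.2 RPKM (SD, n = 3) and 185 ± 7.30 RPKM (SD, n = 3), and Ctcf 166 ± 11.1 RPKM (SD, n = 3) and 177 ± 15.8 RPKM (SD, n = 3) at the most accessible of its 3. The log2 fold changes were 0.02 (SE 0.104) at Smchd1 and 0.09 (SE 0.129) at Ctcf, or 0.0048 and -0.0092 without that library. The other Ctcf intervals had 0.24 (SE 0.150) and 0.35 (SE 0.214), or -0.02 and 0.37 without it. The 2 promoter intervals of Dnmt1, the maintenance methyltransferase, had log2 fold changes of -0.04 (SE 0.165) and 0.17 (SE 0.225), or 0.03 and 0.18 without it.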

How the data were processed

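ATAC-seq read pairs were, per the methods, trimmed with Trimmomatic and aligned to mm9 with Bowtie (Bowtie2 in the submitters' processing notes; versions are not given in the sources used here). PCR duplicates were removed with Picard, fragment ends shifted for the Tn5 binding event, and peaks called with MACS2 and merged into union intervals. The authors deposited raw, unnormalized counts of fragment ends for each library. Their own comparison columns, which hold log2 fold change, standard error, Wald score, p-value and adjusted p-value, were not used, and 0 columns of samples were left over.

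Groups were taken from the sample labels. Members and gene lists were chosen with earlier results of these data known. Counts of all 39768 intervals were compared with edgeR 4.0.16 in R 4.3.3 (TMM, robust quasi-likelihood test, no filter, Benjamini-Hochberg adjustment over all intervals, threshold 0.05), a procedure tested on simulated data. The biological coefficient of variation was 0.126. SE was derived as |log2 fold change| / sqrt(F). RPKM and summed CPM use the sum of counts in all intervals. CPM of single intervals also use the TMM factors (0.9705 to 1.0155). These CPM served to rank libraries, to call groups apart and for the permutation test at Grb10. With 3520008 to 6117245 counts a library, errors cover counting and replicate spread. PCR copies left after duplicate removal are not covered. Intervals are given with starts and ends as in the table, and printed sequences by their first and last base counted from 1.

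Named were, by rule, the interval nearest to a TSS of each gene, the strongest within 1 kb of a TSS, the 3 with the lowest p in each direction, the highest mean RPKM and every gene without an interval. Strong or wide intervals inside Peg3, Peg10, Grb10, Ddc, Igf2r, Kcnq1, Commd1, Gnas and Trappc9, the Kcnq1ot1 TSS and further intervals of Ube3a were added after values were seen, and so was the sequence part of the motif CGCCATNTT. Alternatives were DESeq2 1.42.0, limma voom (limma 3.58.1), 2 other scalings, 2 count filters, a replicate block, other assignment windows, and each library left out. Medians without Inpp5f or Ube3a were added after seeing the data. Sequences were read in Python 3.11.15, and RefSeq promoters (GRCm38.p6) were placed on mm9 by exact match. RNA-seq and ChIP-seq were not analysed here.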

Additional observations from a re-analysis of the deposited data

How the results depend on the processing

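Under no alternative did an interval of an imprinted gene, or any interval, pass an adjusted p of 0.05. The number at an unadjusted p under 0.05 was 3 of 86 and 1970 of all, and became 1 and 756 with DESeq2, and 1 and 1064 after a filter of 20 or more counts in each library, where fewer intervals were tested. With single libraries left out it ran from 2 to 5 among the 86 and from 1265 (without CTL replicate 3) to 3163 (without H2A.Z dKO replicate 1) over all intervals. The median log2 fold change of the 86 intervals ran from -0.042 (without H2A.Z dKO replicate 1) to 0.012 with single libraries left out, and was also below 0 without CTL replicate 3 or H2A.Z dKO replicate 3. That of the 33 promoter intervals ran from -0.068 (without H2A.Z dKO replicate 1) to 0.095. Counting only intervals within 5 kb of a TSS left 52 intervals, with a median of 0.045. With a replicate block the counts were 3 and 1756 and the median 0.014. Replicate numbers share no stated animal or day, and deviations of CTL and H2A.Z dKO libraries with the same number correlated at -0.098, -0.053 and -0.032.

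Of 513 values under the alternatives, for 40 intervals of imprinted genes, those named by rule and those added, 482 kept their sign and 31 did not, 30 of these with a library left out. Their ranges with single libraries left out were -0.088 to 0.15 at the Airn TSS, -0.064 to 0.18 at Cdkn1c, -0.049 to 0.024 at Copg2, -0.36 to 0.10 and -0.14 to 0.35 at the Gnas TSS, and -0.078 to 0.52 at the narrower Herc3 interval. They were -0.35 to 0.28 at the Igf2r TSS (-0.013 with limma voom), -0.25 to 0.20 at Inpp5f, -0.13 to 0.022 at the Kcnq1 interval nearest to its TSS, -0.22 to 0.042 at the Kcnq1ot1 TSS and -0.17 to 0.0058 at a further Kcnq1 intron interval. They were -0.23 to 0.31 upstream of Mest, -0.19 to 0.33 at Peg3, -0.17 to 0.066 at Plagl1, -0.055 to 0.42 at the Trappc9 TSS, -0.098 to 0.065 at the Trappc9 intron interval that is printed, -0.15 to 0.022 and -0.18 to 0.37 in the Peg10 intron, -0.15 to 0.39 at the nearer of the 2 Ube3a intervals downstream of its TSS, -0.11 to 0.097 at the strongest Ddc interval and -0.060 to 0.13 at B3gnt2 within Commd1. The cause was not tested. Where the sign was kept, the value at the Grb10 promoter ran from 0.62 to 1.06, at Zim1 from -0.44 to -0.17, at Zrsr1 from -0.45 to -0.10, at the wider Herc3 interval from 0.022 to 0.64, at the Mest TSS from -0.64 to -0.28, at the Ddc interval nearest to a TSS from 0.072 to 0.55 and at the narrow Trappc9 intron interval from -0.96 to -0.36. With 4 to 1342 counts an interval and library, small differences could not be seen at most intervals. Over all intervals, 142 had a change of at least 2-fold in either direction, yet 0 passed an adjusted p of 0.05 by edgeR. The 2-fold and 1.5-fold sizes given with the confidence intervals are therefore not limits of detection after adjustment.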
